A study of Mus musculus with 8 samples.

Results

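The proteasome genes of mouse morulae were described as the 52 rows, of 18257 in the deposited table, whose symbol begins as a proteasome subunit, regulator or chaperone (Psma to Psmg with a number) or is Pomp or Adrm1. One of these, Psmc3ip, shares only the prefix and encodes a cofactor of meiotic recombination, so 51 proteasome genes remained. They comprised 14 constitutive core subunits, 5 tissue-restricted or immune core subunits, 18 regulatory particle subunits, 6 activators or inhibitors and 8 assembly factors. The embryos were wild-type, and 2 groups were compared, both cultured in KSOM medium from the 4-cell stage. The control group received the solvent alone, 0.1% DMSO, and the other group received 2 µM A485, which blocks the lysine acetyltransferases p300 and CBP. Each group had 4 libraries of polyadenylated RNA, each from a pool of 3 morulae freed of the zona pellucida. By the protocol the culture ran to the blastocyst stage, whereas the tissue label is morula. A pool counts as 1 biological replicate in the labels. Litters and culture days are not named, so p-values measure the spread between these pools.

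The proteasome degrades proteins that carry ubiquitin chains. Its core particle is a barrel of stacked rings of alpha and beta subunits. The alpha rings gate the entrance, and the beta subunits Psmb5, Psmb6 and Psmb7 carry the proteolytic sites. The regulatory particle caps the barrel. Its base holds a ring of ATPases (Psmc genes) that unfolds the substrate and opens the gate, with the ubiquitin receptors Adrm1 and Psmd4 beside it. Its lid holds the deubiquitinase Psmd14, which removes the chain as the substrate enters. Other caps, encoded by the Psme genes, open the gate without ATP or ubiquitin. In the immunoproteasome, induced by interferon, Psmb8, Psmb9 and Psmb10 replace the constitutive catalytic subunits. Dedicated chaperones assemble each particle. When proteasome activity falls, the transcription factor Nfe2l1, cut by the protease Ddi2, is known to raise many subunit genes together through antioxidant response elements in their promoters.

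That element has the core TGACNNNGC, where N is any base, and it is shown here because it is the known shared control sequence of these genes. Promoters from 250 bases before to 50 bases after the start were taken from RefSeq (GRCm38.p6), and 43 of the 51 genes were matched. The core stood on either strand in 7 of the 43 (16.3%), against 14% of the 27018 genes in the table, so its share among proteasome genes was near that of all genes. The 50-base windows that hold it are given 5′ to 3′ on the gene's strand, with the match in capitals. In Psme4, Psmc6 and Psmd12 the match is on the opposite strand and appears as the reverse complement.
Adrm1, chr2:180171395-180171444, + strand: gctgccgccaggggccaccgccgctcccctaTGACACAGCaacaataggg
Psme4, chr11:30771737-30771786, + strand: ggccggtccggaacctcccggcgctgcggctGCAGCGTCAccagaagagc
Psmb5, chr14:54618024-54618073, - strand: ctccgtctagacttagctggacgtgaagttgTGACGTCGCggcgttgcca
Psmb6, chr11:70525317-70525366, + strand: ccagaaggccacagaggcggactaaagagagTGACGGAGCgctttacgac
Psmc6, chr14:45329574-45329623, + strand: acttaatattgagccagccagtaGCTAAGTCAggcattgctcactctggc
Psmd12, chr11:107479278-107479327, + strand: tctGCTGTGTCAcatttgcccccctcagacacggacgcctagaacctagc
Psmd9, chr5:123228128-123228177, + strand: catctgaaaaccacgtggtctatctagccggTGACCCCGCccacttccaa
Of these 7 genes, Adrm1 fell, Psme4 rose and the other 5 did not pass the test described below, so genes with this core did not share a direction. A second motif, CCAAT, bound by the factor NF-Y, stood on either strand in 15 of 43 promoters (34.9%) against 41.1% of all genes. It stood in 5 of 7 alpha subunit promoters (Psma1, Psma2, Psma3, Psma6 and Psma7), 1 of 4 beta and 2 of 4 tissue or immune core promoters. For the other classes it stood in 2 of 5 base ATPase, 2 of 4 other base, 1 of 6 lid, 1 of 6 activator or inhibitor and 1 of 7 assembly factor promoters. These are letters in a window, and no binding was measured here.

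Total estimated counts lay between 23641781 and 25677701 per library. The low-count filter left 12936 genes for testing, among them 49 of the 51 proteasome genes. Psma8 and Psme2b did not pass the filter. Levels per library are given in CPM, counts scaled to library size, with TMM factors, which assume that most genes do not change. Changes are log2 fold changes of A485 over control with their standard error (SE), and the adjusted p comes from the edgeR quasi-likelihood test, adjusted over all tested genes by the Benjamini-Hochberg method. A gene is called higher or lower where the adjusted p is under 0.05. Of all genes tested, 29.7% were called higher and 25.0% lower, 54.7% in all, so calls were common. Of the 49 tested proteasome genes, 5 were higher (10.2%), 17 were lower (34.7%) and 27 did not pass. Among the 5 higher genes, Psmb8 passed the low-count filter only through its A485 libraries. The groups did not overlap in CPM for 24 of them, 6 above and 18 below, against 51.4% of all genes tested (26.8% above and 24.6% below). In the authors' deposited table, 6 of the 51 genes were higher and 18 lower at a q-value under 0.05 (24.3% and 19.6% of all genes with a q-value), and all 22 genes called here had the same direction there.

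The labels name no spike-in, so all changes are relative to the other RNA, and fewer cells or less RNA per cell cannot be told apart in pools. Over all tested genes the median log2 fold change was 0.09 with TMM factors and 0.37 with total-count scaling, a shift of 0.29. Under total counts, 11 of the 49 proteasome genes were higher and 9 lower (38.1% and 17.8% of all genes). No called gene changed sign, and 14 of the 22 calls were kept. The 8 calls that were lost were all of lower genes: Psma6, Psmb10, Psmc2, Psmc4, Psmf1, Pomp, Psmg2 and Psmg4. Measures that do not depend on the scaling, such as ratios within a library, are therefore given beside the calls. The 10 morula markers read as a check of the tissue were detected in both groups and summed to 4417 to 5401 CPM in control and 1924 to 2865 CPM in A485. Of these, 9 were lower in A485, against 25.0% of all genes tested, and 0 were higher. Cdh1 did not pass, at a log2 fold change of 0.30 ± 0.20, and its groups overlapped. Under total counts the same number were lower (against 17.8%), and Cdh1 was called higher, at 0.58 (edgeR adjusted p = 0.0412). Cdx2, a trophectoderm factor, was the lowest marker in A485, at 0.365 to 3.20 CPM.

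**Figure D1:**
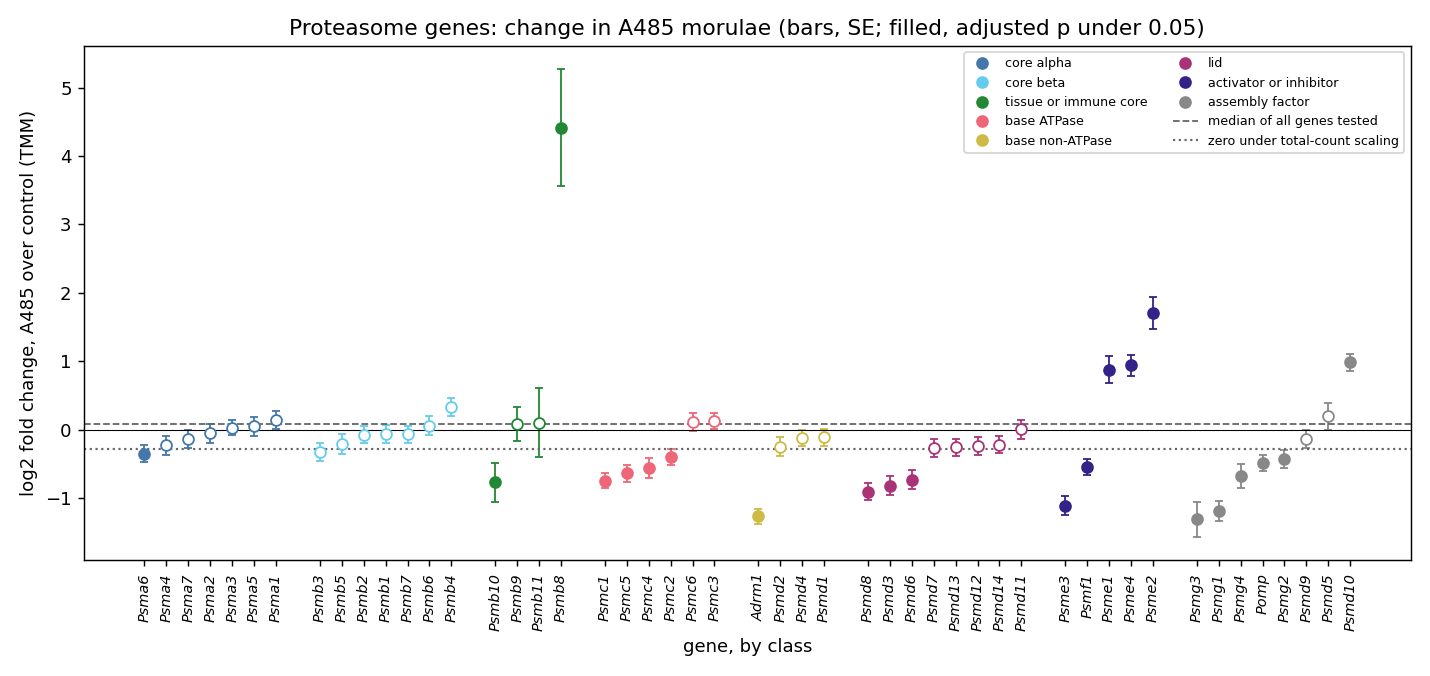
Log2 fold change of A485 over control (vertical axis) with SE for the 49 tested proteasome genes, ordered within 8 classes (horizontal axis). Filled points have an adjusted p under 0.05, the dashed line is the median of all genes tested at 0.09, and the dotted line shows where 0 would lie under total-count scaling. Alpha and beta subunits sit close to 0, while activators and assembly factors spread to both sides.

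The constitutive core particle had few calls. Of its 14 subunits, 0 were called higher and 1 lower by edgeR, against 29.7% and 25.0% of all genes tested. DESeq2 called 1 higher and 2 lower (30.7% and 26.9% of all genes), as did limma-voom (28.2% and 26.7%). At an unadjusted edgeR p under 0.05, 1 core gene was higher (Psmb4) and 2 were lower (Psma6 and Psmb3). The share of all genes at that threshold was not counted. The log2 fold changes had a median of -0.06 and ran from -0.35 to 0.33, a range of 0.68 that was the same under total-count scaling. Their standard deviation was 0.18, compared with 0.38 among the 18 regulatory particle subunits. The scaling moved the position of this band and not its width. Under total counts the median was 0.22, below the 0.37 of all genes tested. There, 4 subunits (Psma1, Psma3, Psmb4 and Psmb6) were called higher (28.6%, against 38.1% of all genes) and 0 lower (against 17.8%).

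Among the alpha subunits, Psma6 was the one called. Levels of Psma6 were 983, 924, 908 and 930.0 CPM in control and 819, 652, 701 and 772 CPM in A485. Its 4 A485 values lay below the 4 control values, and the log2 fold change was -0.35 ± 0.12 (adjusted p = 0.0305). Leaving out control replicate 1, 2 or 4, or A485 replicate 2 or 3, ended the call (adjusted p 0.0588 to 0.0826), and under total counts the log2 fold change was -0.07. Psma4 was measured at 966, 835, 894 and 946 CPM in the control libraries and 735, 679, 732 and 969 CPM in the A485 libraries. Psma1 reached 849, 686, 739 and 715 CPM without A485 and 792, 741, 803 and 971 CPM with it. Both genes overlapped between groups, with log2 fold changes of -0.22 ± 0.14 and 0.15 ± 0.13. Without A485 replicate 4, Psma4 was called lower at -0.35 (adjusted p = 0.0377). Psma2, Psma3, Psma5 and Psma7 had log2 fold changes of -0.05 ± 0.14, 0.03 ± 0.12, 0.06 ± 0.14 and -0.14 ± 0.13, and none passed.

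The 3 catalytic beta subunits did not pass the test. Psmb5 stood at 778, 703, 642 and 801 CPM in control and 721, 609, 519 and 681 CPM in A485. This is the subunit with chymotrypsin-like activity, and its groups overlapped (log2 fold change -0.21 ± 0.14, adjusted p = 0.234). Levels of Psmb6 were 1058, 974, 989.6 and 907 CPM in control and 1238, 874, 939.6 and 1034 CPM in A485. Psmb6 carries the caspase-like site. Psmb7 was measured at 669, 680.0, 577 and 611 CPM in the control libraries and 676, 535, 589 and 631 CPM in the A485 libraries. Psmb7 carries the trypsin-like site. Both overlapped, with log2 fold changes of 0.06 ± 0.14 and -0.06 ± 0.12.

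With TMM factors, the noncatalytic beta subunits Psmb3 and Psmb4 were the 2 that stood apart in opposite directions. Psmb3 reached 1426, 1329, 1316 and 1417 CPM without A485 and 1238, 1006, 962 and 1174 CPM with it. All 4 A485 values were below all control values, at -0.32 ± 0.13 (adjusted p = 0.0512). Psmb4 stood at 873, 784, 751 and 864 CPM in control and 1163, 879, 987 and 1080 CPM in A485. All 4 A485 values were above, at 0.33 ± 0.13 (adjusted p = 0.0523). Neither passed the threshold in edgeR with TMM factors. Under total counts Psmb3 was near 0, at -0.05 (edgeR adjusted p = 0.687), and Psmb4 was called higher, at 0.61 (edgeR adjusted p = 0.00088). Psmb3 passed with DESeq2, limma-voom, RLE factors and no filter (adjusted p 0.0193 to 0.0444), and without A485 replicate 1 (adjusted p = 0.0131). Psmb4 passed with DESeq2, limma-voom, upper-quartile factors and the 5 CPM filter (adjusted p 0.00764 to 0.0473), and without A485 replicate 2 (adjusted p = 0.0336). Both passed without A485 replicates 1 and 2 (adjusted p = 0.0282 and 0.0441). The authors' DESeq2 q-values were 0.0290 for Psmb3 and 0.0815 for Psmb4. Psmb1 and Psmb2 had log2 fold changes of -0.06 ± 0.13 and -0.07 ± 0.12.

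Compared per transcript length, as TPM in the authors' table, the core subunits Psmb3 and Psma7 had the highest levels of all proteasome genes in both groups. In control embryos they ran from 659 ± 64.6 TPM for Psma1 to 2391 ± 96.0 TPM for Psmb3, a ratio of 3.63, and in A485 from 909 ± 125 to 2368 ± 64.5 TPM for the same 2 genes, a ratio of 2.60. Psma7 was the highest alpha subunit in both groups, with every library above the next gene. In control, the lowest 2 alpha subunits Psma5 and Psma1 did not differ beyond their spread, and the same was true of Psmb6, Psmb4 and Psmb5. The summed TPM of the 14 core genes was 16200, 14750, 15690 and 15320 in control and 16850, 17260, 19090 and 19450 in A485, so every A485 library was higher. With FPKM scaled by TMM factors, the same sum was 16590 ± 838 in control and 15680 ± 1667 in A485 (SD, n = 4), and the groups overlapped. The direction of the core sum therefore depended on the scaling.

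**Figure D2:**
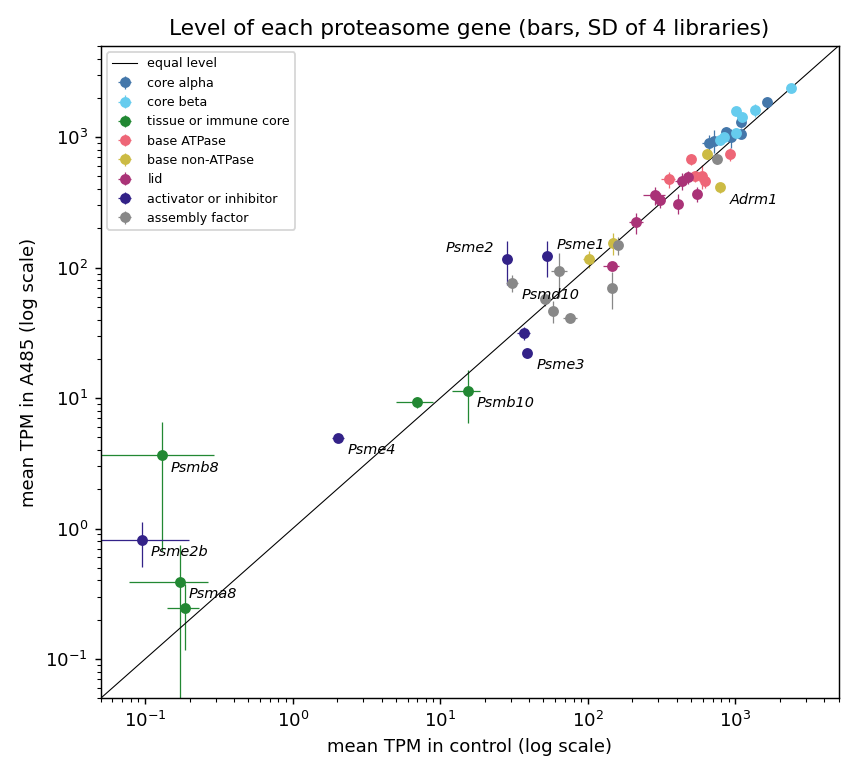
Mean TPM of each of the 51 proteasome genes in A485 (vertical, log scale) against control (horizontal, log scale), coloured by class, with SD of 4 libraries. Bars that pass 0 run off the axis. Core subunits group at the upper right, and Psmb8, Psme2b and Psma8 lie at the lower left.

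The regulatory particle had 8 of 18 subunits lower (44.4%, against 25.0% of all genes tested) and 0 higher by edgeR. DESeq2 and limma-voom also gave 8 lower (against 26.9% and 26.7% of all genes) and 0 higher. An unadjusted edgeR p under 0.05 gave the same counts, but the share of all genes there was not counted. The median log2 fold change was -0.26 and the range ran from -1.26 to 0.12. Under total counts 6 stayed lower (33.3%, against 17.8% of all genes) and 2, Psmc3 and Psmc6, were called higher (11.1%, against 38.1%). The median was then 0.03, against 0.37 over all genes. Within each library, the summed TPM of the 18 regulatory genes divided by that of the 14 core genes was 0.494, 0.521, 0.549 and 0.513 in control. It was 0.368, 0.430, 0.421 and 0.417 in A485, so each A485 ratio was below each control ratio. This ratio does not depend on library scaling. The summed TPM of the regulatory genes alone was 8040 ± 401 in control and 7441 ± 880 in A485 (SD, n = 4), and the groups overlapped. With TMM-scaled FPKM it was 8599 ± 180 in control and 6392 ± 579.7 in A485, and every A485 library was lower. The mean ratio was 0.519 ± 0.0229 in control and 0.409 ± 0.0276 in A485 (SD, n = 4).

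**Figure D3:**
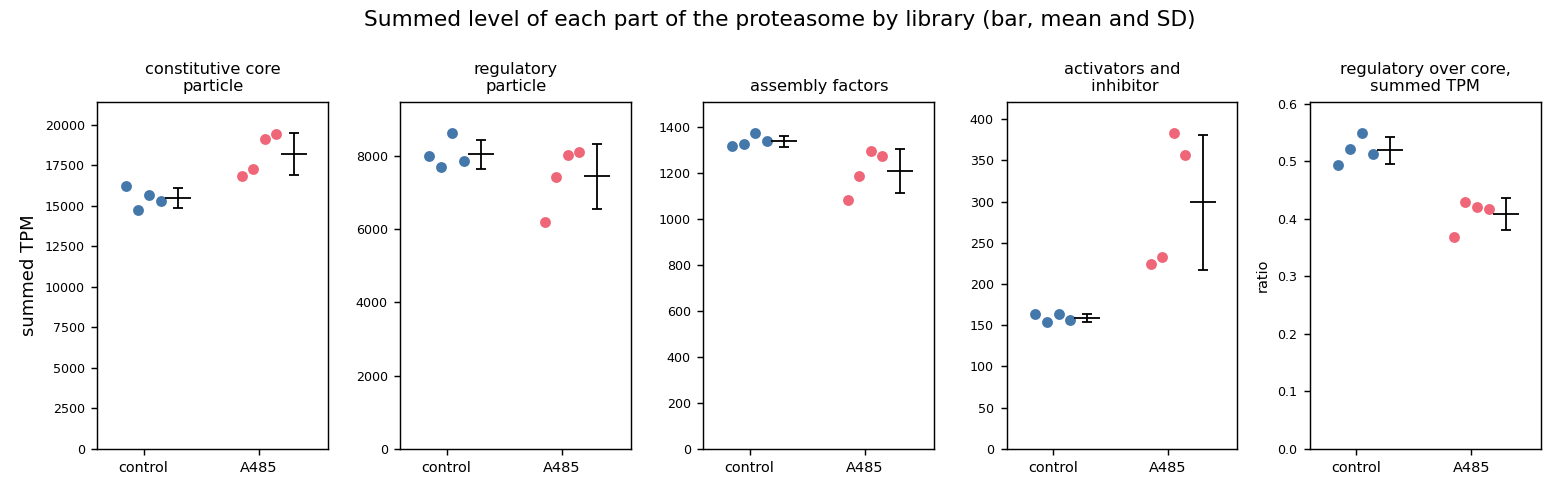
Summed TPM (vertical, from 0) of the core particle, the regulatory particle, the assembly factors and the activators and inhibitor in each library, and the regulatory over core ratio, with mean and SD. The ratio is 0.494 to 0.549 in control and 0.368 to 0.430 in A485.

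Among the 6 ATPases of the base, 4 were lower (66.7%, against 25.0% of all genes tested) and 0 higher. Under total counts 2 were lower (33.3%, against 17.8%) and 2 higher (33.3%, against 38.1%). Levels of Psmc1 were 830.1, 852, 923 and 864 CPM in control and 491, 499, 510.3 and 575 CPM in A485. The groups stood well apart, and the log2 fold change was -0.74 ± 0.11 (adjusted p = 0.000426). Psmc5 was measured at 1102, 1032, 1089 and 1058 CPM in the control libraries and 673, 631, 658 and 791 CPM in the A485 libraries. Psmc5 changed by -0.64 ± 0.12 (adjusted p = 0.00134), again without overlap. Psmc4 reached 818, 756, 814 and 768 CPM without A485 and 461, 480.5, 532 and 674 CPM with it. Psmc4 changed by -0.55 ± 0.14 (adjusted p = 0.00753), with A485 replicate 4 the highest treated library. Psmc2 was lower, at -0.40 ± 0.12. Under total counts Psmc2 and Psmc4 no longer passed (adjusted p = 0.363 and 0.137).

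The other 2 ATPases, Psmc3 and Psmc6, had log2 fold changes of 0.12 ± 0.12 and 0.12 ± 0.13, and their groups overlapped. The 6 ATPases occupy 1 ring and assemble together, and their transcripts spread over 0.86 in log2 fold change. By TPM, the order also differed between groups. In control Psmc5 was highest, at 925 ± 53.6, and Psmc6 lowest, at 353 ± 37.3. In A485 Psmc5 still led, at 741 ± 86.8, but not beyond the spread of Psmc3, at 679 ± 63.5, and neighbours among the lower 4 did not differ beyond their spread.

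Adrm1, a ubiquitin receptor of the base that also recruits the deubiquitinase Uchl5, had the smallest adjusted p of all proteasome genes. Adrm1 stood at 1003, 1168, 994 and 1033 CPM in control and 454, 416, 435 and 441 CPM in A485. The A485 libraries were close to each other and all far below control, at -1.26 ± 0.12 (adjusted p = 2.75e-05). By TPM, Adrm1 was the highest non-ATPase gene of the base in control, at 791 ± 50.7, and second to Psmd4 in A485, at 411 ± 37.6. Levels of Psmd4 were 842, 728, 779.5 and 812 CPM in control and 734, 688, 696 and 798 CPM in A485. Psmd4, the other receptor, overlapped between groups, at -0.12 ± 0.12 (adjusted p = 0.416). Psmd2 was measured at 437, 416, 455 and 435 CPM in the control libraries and 319.9, 328, 380.4 and 444 CPM in the A485 libraries. Psmd2 and Psmd1, the large scaffold subunits, had log2 fold changes of -0.24 ± 0.13 and -0.11 ± 0.13 and did not pass, but Psmd2 passed as lower without A485 replicate 4 (-0.35, adjusted p = 0.0364).

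In the lid, 3 of 8 subunits were lower (37.5%, against 25.0% of all genes tested), all noncatalytic scaffold subunits. Psmd8 reached 749.5, 759, 745 and 852 CPM without A485 and 429, 364, 445 and 423 CPM with it. Every treated library lay below every control library, at -0.90 ± 0.12 (adjusted p = 0.000186). Psmd3 stood at 300.5, 275, 278 and 358 CPM in control and 193, 172, 149 and 175 CPM in A485. Psmd3 changed by -0.81 ± 0.13 (adjusted p = 0.000629). Levels of Psmd6 were 503, 523, 503 and 479 CPM in control and 276, 304, 259 and 376 CPM in A485. Psmd6 changed by -0.73 ± 0.14 (adjusted p = 0.00140). All 3 kept the call under total counts. Psmd14 was measured at 453, 457, 441 and 426 CPM in the control libraries and 371, 345, 367 and 449 CPM in the A485 libraries. Psmd14 is the deubiquitinase of the lid, and A485 replicate 4 lay among the control libraries while the other 3 treated libraries were below them (log2 fold change -0.21 ± 0.12, adjusted p = 0.156).

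Psmd7, the partner of Psmd14, and Psmd12, Psmd13 and Psmd11 had log2 fold changes of -0.26 ± 0.13, -0.24 ± 0.13, -0.26 ± 0.13 and 0.01 ± 0.14, and none passed. Leaving out A485 replicate 4 raised the number of lower regulatory genes from 8 to 12, by Psmd2, Psmd7, Psmd12 and Psmd14 (adjusted p 0.03505 to 0.0464). Over all genes, the fits that left out 1 library called 2784 to 3520 lower (main 3238). The share of all genes in the fit without A485 replicate 4 is not given here, so the rise cannot be set against it. Among the A485 libraries, replicate 4 had the highest CPM for 15 of the 18 subunits. It was also the highest for some core subunits (such as Psma1 and Psma7) and not for others (such as Psma6 and Psmb3). The share over all genes was not counted. The 8 edgeR calls of the regulatory particle were kept in each fit that left out 1 library.

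**Figure D4:**
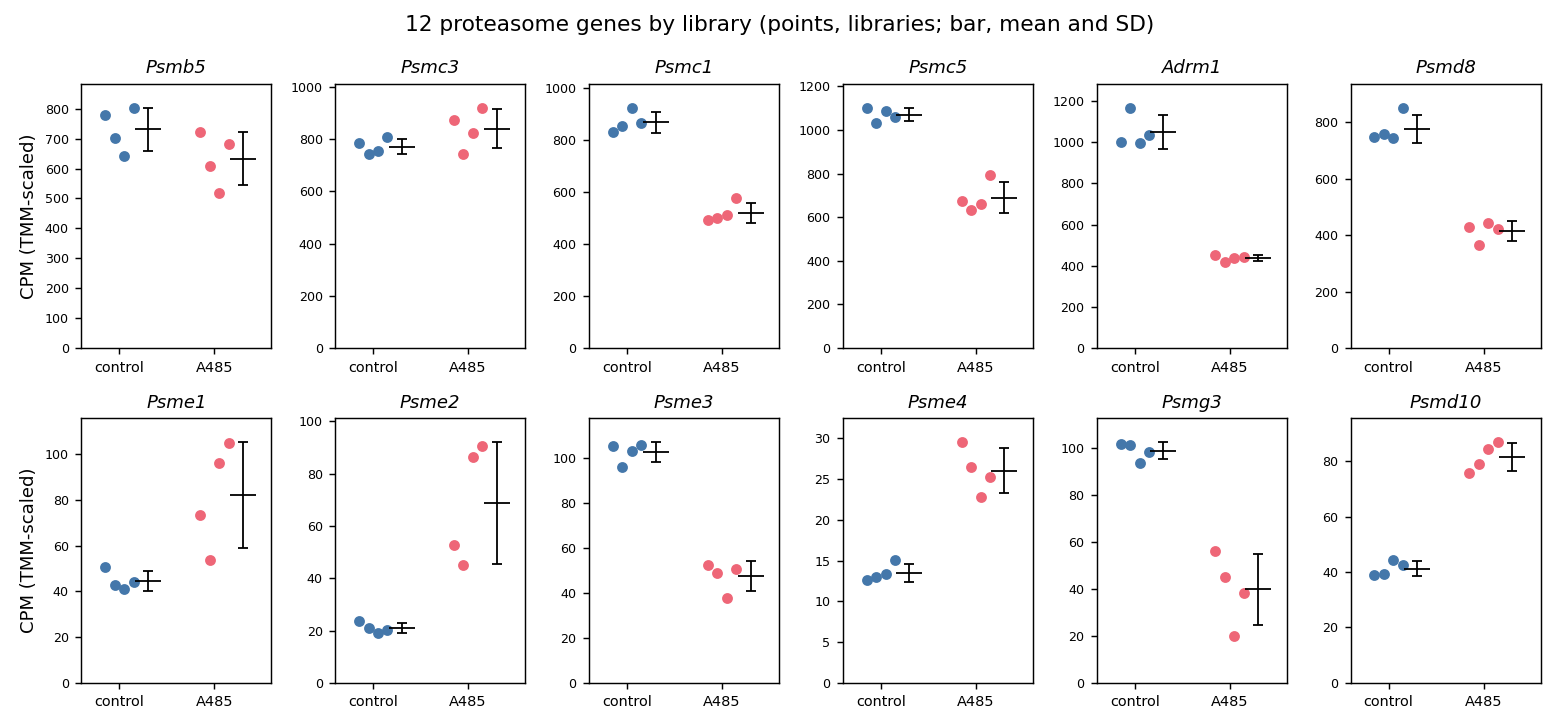
CPM (vertical, from 0) of 12 proteasome genes in each control and A485 library (points), with mean and SD (bars). Psmb5 and Psmc3 overlap between groups, while Adrm1 falls from 994 to 1168 CPM in control to 416 to 454 CPM in A485.

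The tissue and immune core subunits were scarce in both groups. Psmb8 reached 0, 0.135, 0.375 and 0.0464 CPM without A485 and 3.32, 1.46, 6.25 and 1.44 CPM with it. The estimated counts of Psmb8 summed to 13 in the 4 control libraries and 344 in the 4 A485 libraries. Scaled for library size, the ratio was 22.1 (95% exact interval 12.8 to 41.9, counting error only). The log2 fold change was 4.41 ± 0.85 (adjusted p = 0.00161), and the level in A485 was still only 3.63 ± 2.96 TPM, compared with 1082 ± 57.5 TPM for Psmb5, the constitutive subunit that it replaces. Psmb8 had 0, 3, 9 and 1 estimated counts in the control libraries and 39 to 184 in A485. It passed the low-count filter through A485 alone, so its call was partly fixed by that filter. A485 replicate 3 was the highest library, and all 4 A485 values lay above control. With that limit, the call was kept in each fit that left out 1 library (adjusted p up to 0.00735). The size rested on few libraries: without control replicate 3, which held 9 of the 13 control counts, the log2 fold change was 5.535, and without A485 replicate 3, which held 184 of the 344, it was 3.82.

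The other 2 inducible subunits did not follow Psmb8. Psmb9 stood at 4.27, 3.34, 6.04 and 5.42 CPM in control and 5.62, 4.97, 4.04 and 5.61 CPM in A485. Psmb9 and Psmb8 lie on chromosome 17 (34182030 to 34187330 and 34198195 to 34201454) with Tap1 between them (34187556 to 34197225). Psmb9 did not pass, and its groups overlapped, at 0.09 ± 0.25 (adjusted p = 0.793). Levels of Psmb10 were 15.8, 24.1, 14.99 and 16.1 CPM in control and 12.5, 7.78, 14.98 and 6.39 CPM in A485. Psmb10 was lower, at -0.77 ± 0.29 (adjusted p = 0.0422), with the highest A485 value just under the lowest control value. Under total counts the call was gone (adjusted p = 0.204), as it was when control replicate 1, 2 or 4, or A485 replicate 2 or 4, was left out (adjusted p 0.0559 to 0.148). The log2 fold change without control replicate 2 was -0.56.

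Psmb11, the beta subunit of the thymus proteasome, stayed under 2 CPM in all 8 libraries and had a log2 fold change of 0.11 ± 0.50. Psma8, the alpha subunit of the testis proteasome, had 25 estimated counts in control and 52 in A485 and was not tested. Psma8 was measured at 0.264, 0.180, 0.167 and 0.510 CPM in the control libraries and 0.246, 0.621, 0.951 and 0.0369 CPM in the A485 libraries. A485 replicate 3 held the highest value and A485 replicate 4 the lowest, so the groups overlapped.

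Activators and the inhibitor went in both directions, and 3 of the 5 tested were higher (60.0%, against 29.7% of all genes tested) and 2 lower (40.0%, against 25.0%). Psme1 and Psme2 form the PA28 alpha-beta cap that is induced by interferon, and they lie near each other on chromosome 14 (55578494 to 55581527 and 55587440 to 55591101). Psme1 reached 50.7, 42.7, 41.0 and 43.9 CPM without A485 and 73.5, 53.6, 96.0 and 105 CPM with it. Psme1 was higher, at 0.88 ± 0.20 (adjusted p = 0.00428). Psme2 stood at 23.8, 21.2, 19.1 and 20.1 CPM in control and 52.8, 44.9, 86.4 and 90.8 CPM in A485. Psme2 was higher, at 1.71 ± 0.23 (adjusted p = 0.000223). In both, A485 replicates 3 and 4 were well above replicates 1 and 2, and all 4 were above control.

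Psme3 and Psme4 encode nuclear caps (PA28 gamma and PA200), and they moved apart. Levels of Psme3 were 105, 96.3, 103 and 106 CPM in control and 52.7, 49.0, 37.8 and 50.9 CPM in A485. Psme3 fell, at -1.11 ± 0.14 (adjusted p = 0.000130). Psme4 was measured at 12.6, 13.0, 13.4 and 15.1 CPM in the control libraries and 29.5, 26.5, 22.8 and 25.2 CPM in the A485 libraries. Psme4 rose, at 0.94 ± 0.15 (adjusted p = 0.000508), from a low level. Both had no overlap and kept their calls under total counts. Psmf1 reached 102, 124, 120.1 and 111 CPM without A485 and 76.7, 81.5, 75.5 and 79.8 CPM with it. Psmf1, an inhibitor of the core particle, was lower, at -0.54 ± 0.12 (adjusted p = 0.00277), and lost the call under total counts (adjusted p = 0.0989). Psme2b, a near copy of Psme2, had 8 estimated counts in control and 66 in A485. Its ratio was 6.89 (95% exact interval 3.30 to 16.6, counting error only, without the spread between libraries). Reads can also be split between these 2 copies, so the ratio is uncertain, and Psme2b was not tested.

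Ratios of 2 members within a library do not depend on scaling, and 5 pairs of partners or alternatives were compared. A further planned pair, Psmb8 to Psmb5, was left out because Psmb8 had 0 counts in control replicate 1. The test was an exact permutation test, two-sided, over all 70 assignments of the libraries, and its smallest p is 0.0286. The ratio of Psme3 to Psme4 in TPM was 20.9, 18.8, 19.3 and 17.5 in control and 4.47, 4.54, 4.06 and 4.97 in A485. All treated values lay below all control values (exact permutation p = 0.0286, adjusted over the 5 pairs 0.0714). The ratio of Psme1 to Psme2 was 1.88, 1.78, 1.91 and 1.92 in control and 1.22, 1.05, 0.985 and 1.03 in A485, again with no overlap (exact permutation p = 0.0286, adjusted 0.0714).

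For the core, Psmb10 over Psmb7 had a mean of 0.0194 ± 0.00359 in control and 0.0119 ± 0.00450 in A485 (SD, n = 4; exact permutation p = 0.0571, adjusted 0.0952). The ratio of Psmb9 to Psmb6 had means of 0.00635 and 0.00662 (exact permutation p = 0.714), and that of Psma8 to Psma7 overlapped (exact permutation p = 0.8286). None of the 5 pairs passed 0.05 after adjustment. Both fully separated pairs sat at the smallest p, and 2 such pairs among 5 cannot go below an adjusted 0.0714.

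**Figure D5:**
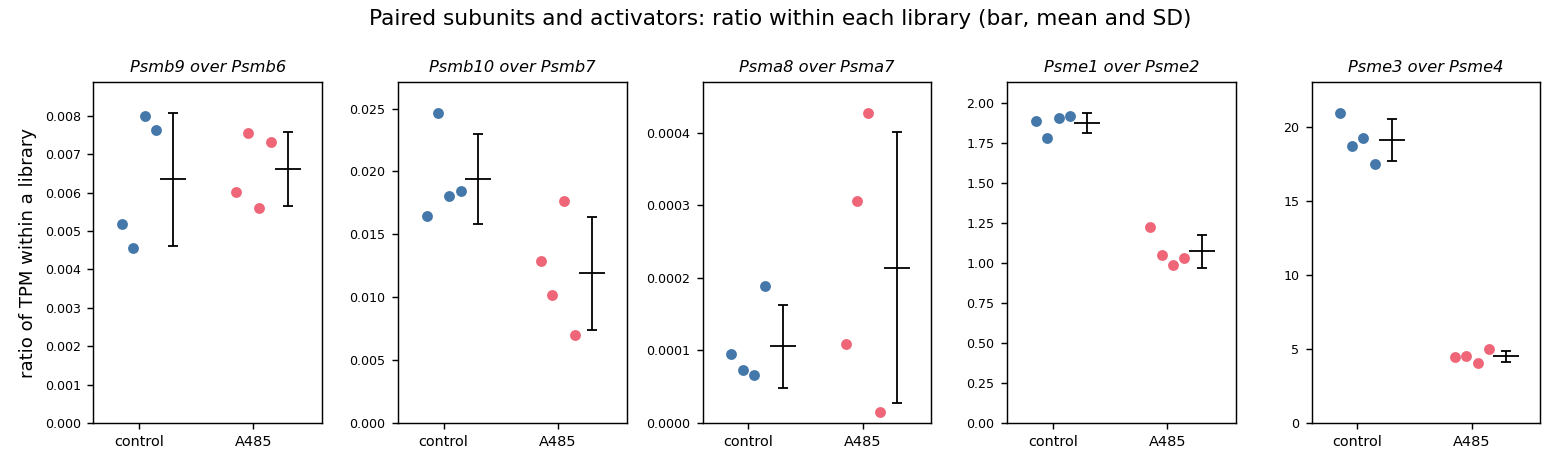
Ratio of TPM (vertical, from 0) within each control and A485 library for 5 pairs of subunits and activators, with mean and SD. Psme3 over Psme4 falls from 17.5 to 20.9 in control to 4.06 to 4.97 in A485, while Psmb9 over Psmb6 overlaps.

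Of the 8 assembly factors, 5 were lower (62.5%, against 25.0% of all genes tested) and 1 higher (12.5%, against 29.7%). Under total counts 2 were lower (25.0%, against 17.8%). Psmg1 to Psmg4 and Pomp help to build the core particle, and Psmd5, Psmd9 and Psmd10 chaperone the ATPase base. Psmg1 stood at 64.0, 66.9, 75.3 and 70.1 CPM in control and 33.6, 28.4, 25.0 and 34.7 CPM in A485. Psmg1 fell, at -1.18 ± 0.15 (adjusted p = 0.000127). Levels of Psmg3 were 102, 101, 94.0 and 98.5 CPM in control and 56.1, 45.3, 20.1 and 38.4 CPM in A485. Psmg3 fell, at -1.31 ± 0.26 (adjusted p = 0.00188), and A485 replicate 3 was the lowest library. Pomp was measured at 440.4, 451, 415 and 452 CPM in the control libraries and 326, 289.5, 293 and 354 CPM in the A485 libraries. Pomp was lower, at -0.48 ± 0.12 (adjusted p = 0.00546), and was the most abundant assembly transcript, at 753 ± 9.44 TPM in control and 674 ± 56.8 in A485.

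Psmg4 and Psmg2 were lower, at -0.67 ± 0.18 and -0.43 ± 0.14. Under total counts Pomp, Psmg2 and Psmg4 lost their calls, while Psmg1 and Psmg3 kept theirs. Psmg2 also lost its call without A485 replicate 2 (adjusted p = 0.0504). Psmd10 reached 38.8, 39.3, 44.3 and 42.4 CPM without A485 and 75.8, 79.2, 84.5 and 86.8 CPM with it. Psmd10, known as gankyrin, was the only assembly gene called higher, at 0.99 ± 0.12 (adjusted p = 0.000121), with all A485 values above all control values. The other base chaperones, Psmd5 and Psmd9, had log2 fold changes of 0.20 ± 0.20 and -0.13 ± 0.13 and did not pass. All 5 core chaperones were lower with TMM factors, and of the 3 base chaperones 1 was higher and 0 lower.

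The summed TPM of the 8 assembly factors was 1316, 1325, 1372 and 1339 in control and 1081, 1185, 1295 and 1272 in A485, with every A485 library lower. Over all 51 genes the sum was 25050 ± 900 in control and 27140 ± 2293 in A485 (SD, n = 4), or 2.51% and 2.71% of all TPM, and the groups overlapped. With TMM-scaled FPKM the direction turned, from 26810 ± 952 in control to 23390 ± 2261 in A485, with every A485 library lower.

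Genes of the pathway that sets proteasome levels were read from lists, beside 29.7% of all genes tested higher and 25.0% lower (38.1% and 17.8% under total counts). Of 13 factors for proteasome transcription and nuclear import, 5 were higher (38.5%) and 4 lower (30.8%), near the shares of all genes (6 and 2 under total counts). Nfe2l1 itself, at 9.77, 11.2, 10.4 and 11.7 CPM in control and 8.24, 9.57, 9.92 and 13.0 in A485, overlapped between groups (log2 fold change -0.08 ± 0.19, adjusted p = 0.743). Ddi2 was lower, at -0.83 ± 0.16 (adjusted p = 0.00167), while the relatives of Nfe2l1, Nfe2l2 (0.75 ± 0.21) and Nfe2l3 (3.31 ± 0.56, under 2 CPM), were higher. Nfe2l3 had 2 to 3 estimated counts per control library and passed the low-count filter through A485 alone, so its call was partly fixed by that filter. The call of Nfe2l2 was lost without A485 replicates 3 and 4 (0.34, adjusted p = 0.0875). Sel1l, of the endoplasmic reticulum degradation machinery, was higher at 1.23 ± 0.25.

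Of 15 tested proteasome-associated factors, 5 were higher (33.3%, near the 29.7% of all genes) and 2 lower (13.3%, against 25.0%), or 7 and 2 under total counts. Ecpas, a proteasome adaptor, rose by 1.55 ± 0.17 in log2 and Fbxo7, a binding partner of the inhibitor Psmf1, by 1.52 ± 0.23. The shuttle receptor Rad23b fell, at -1.001 ± 0.17. Sem1, a small lid subunit whose symbol lies outside the rule, and the deubiquitinase Usp14 had log2 fold changes of -0.03 ± 0.13 and -0.09 ± 0.14 and did not pass. Of 10 genes for ubiquitin and its activation, 4 were higher (40.0%, against 29.7% of all genes) and 1 lower, or 7 and 0 under total counts. Ube2r2 and Ube2k were higher (1.71 ± 0.27 and 0.57 ± 0.11) and Uba1, the main activating enzyme, was lower (-0.60 ± 0.17), but not under total counts (adjusted p = 0.115). Ubb, which encodes polyubiquitin, did not pass in edgeR with TMM factors, at 0.35 ± 0.14 (adjusted p = 0.0567). It passed as higher with DESeq2 (adjusted p = 0.0193), limma-voom (0.0316), upper-quartile factors (0.0171), the 5 CPM filter (0.00969) and total counts (0.000804), and without A485 replicate 1 or 2 (adjusted p = 0.0440 and 0.0458).

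Of 9 tested immunoproteasome inducers and MHC class I loading genes, 6 were higher (66.7%, against 29.7% of all genes) and 1 lower (11.1%, against 25.0%), with the same counts under total-count scaling. Irf1, a transcription factor of the interferon response, was at 0.0833 to 0.264 CPM in control and 10.1 to 51.3 CPM in A485 (6.96 ± 0.66 in log2). B2m, the light chain of MHC class I, was at 26.2 to 38.7 CPM in control and 127 to 434.7 CPM in A485 (3.20 ± 0.34), and Ifngr1, a chain of the interferon-gamma receptor, was higher by 2.88 ± 0.26. The 1 lower gene was Ifngr2, the other chain, at -1.51 ± 0.32 (adjusted p = 0.00252). Without A485 replicate 3 the log2 fold change of Irf1 was 6.28. Psmb8, Psme1 and Psme2 were higher with these genes, and Psmb9 and Psmb10 were not. Markers of other cell types were read beside them. Blood and macrophage markers (7 of 8 found) summed to 34.6 to 50.1 CPM in control and 184 to 501 CPM in A485, mostly Hba-a1, Cd68 and Csf1r. The other 4, Ptprc, Lyz2, Hbb-bs and Cd14, stayed under 1 CPM in all libraries. Of the 4 tested, 3 were higher (75.0%, against 29.7% of all genes) and 0 lower, and Cd14 did not pass. Of 12 cumulus and granulosa markers, 9 were under 1 CPM in every library. The 12 summed to 1.98 to 3.25 CPM in control and 2.41 to 6.52 CPM in A485. Has2, Ptx3, Ptgs2, Fshr, Cyp19a1, Inhba and Lhcgr were at 0 in all control libraries. In A485, Ptgs2 was at 0.0365 to 0.509 CPM and Inhba at 0 to 0.574 CPM. Tnfaip6 was at 0 to 0.0880 CPM in control and 0.111 to 1.53 CPM in A485. Star, 1 of 2 tested, was higher (1.69 ± 0.53, edgeR adjusted p = 0.0208, up to 0.0681 with 1 library left out). Mean CPM was lower in A485 for Amh and Runx1 alone, and Runx1 did not pass (-0.85 ± 0.52). The 10 oocyte markers summed to 10.02 to 16.2 CPM in control and 11.7 to 22.5 CPM in A485. Of the 7 tested, 2 were higher (28.6%, near the 29.7% of all genes), 0 were lower and 5 did not pass. The 2 higher were Mos (0 in every control library, 0.533 to 1.77 CPM in A485) and Kit (0.0880 to 0.496 CPM in control, 0.697 to 2.38 CPM in A485). Mos, Kit, Star, Irf1 and Csf1r passed the low-count filter through their A485 libraries, where they were high. Their calls, and the counts of higher genes that hold them, were therefore partly fixed by that filter. The part of these markers of other cell types in the results was not tested.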

How the data were processed

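Per the submitters' processing notes, the build was GRCm38.p6 and the tools were HISAT2 2.2.1, RSEM 1.2.28 and DESeq2 1.40.2. The authors deposited 1 table that holds, per the file headers, an estimated count, an FPKM and a TPM value per gene and library, their log2 fold change, and a p-value and q-value. The 8 columns of normalized counts were not used. The sources used here do not state strandedness.

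The estimated counts were rounded (18.2% of values were not whole; 20 genes had no count left) and entered edgeR 4.0.16 (R 4.3.3), with filterByExpr, TMM factors (0.877 to 1.213), a robust quasi-likelihood fit on group and Benjamini-Hochberg adjustment at 0.05. Each SE was taken as the log2 fold change over the root of its F statistic. Deposited TPM served for levels between genes, summed levels and ratios. Intervals of count ratios are exact for counts pooled within a group and cover counting error only. Promoters and gene positions came from RefSeq tables of GRCm38.p6.

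All replicate pairs differed by more than sampling noise (chi-square over its degrees of freedom 18.8 to 33.1 within control, 57.8 to 199.3 within A485). Alternatives were DESeq2 1.42.0, limma-voom 3.58.1, RLE, upper-quartile and total-count scaling, TMM-scaled FPKM, a low-count filter absent or set at 5 CPM in 4 libraries, a non-robust fit, a replicate block, and leaving out libraries. The code was tested on simulated data. The members and lists were chosen with earlier results of these data known. Values in every library are given for the 3 tested genes of smallest p in each class and for a fixed set of catalytic, immune, receptor, activator and chaperone genes; the other members are given by fold change or level. One gene of the pathway lists is not reported here.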

Additional observations from a re-analysis of the deposited data

Results flagged for a closer look

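In 6 of the 98 groups of 4 libraries checked for the 49 tested genes, 1 library lay far from the other 3, judged by the gap over the whole range of the group. Chance flags about 1 in 20 such groups, and these flags carry no explanation here.

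A485 replicate 4 was high in 3 of them. Psmc6 was at 651 CPM there, against 521 to 536 CPM in the other A485 libraries. Psmd12 was at 718 CPM, against 558 to 571 CPM, and Psmd1 was at 373 CPM, against 276 to 292 CPM. None of these 3 genes passed the test, and Psmd12 passed as lower without that library.

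Control replicate 4 stood apart for 2 genes, in opposite directions. It had 852 CPM of Psmd8, against 745 to 759 CPM in the other controls, and 104 CPM of Psmd5, against 132 to 137 CPM. Control replicate 2 had 24.1 CPM of Psmb10, against 14.99 to 16.1 CPM, and the call of Psmb10 was lost without it.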

How the results depend on the processing

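Of the 22 calls among proteasome genes, 19 were kept in each fit that left out 1 library; Psma6, Psmb10 and Psmg2 were not. Non-robust dispersion changed no member's call. The replicate numbers did not pair the libraries (correlations of deviations with the same number 0.0051, 0.0137, 0.104 and 0.0672); with a replicate block the only member call that changed was Psma6 (adjusted p = 0.0543), leaving 0 lower core genes.

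Under total-count scaling the proteasome counts were 11 higher and 9 lower (main 5 and 17), beside 38.1% and 17.8% of all genes. The core particle had 4 and 0, the regulatory particle 2 higher and the tissue and immune subunits 0 lower. The activators and inhibitor had 1 lower and the assembly factors 2 lower. Core genes higher (main 0) numbered 1 with DESeq2, limma-voom, upper-quartile factors and the 5 CPM filter. Core genes lower (main 1) numbered 2 with DESeq2, limma-voom, RLE factors and no filter, and 0 with upper-quartile factors and the 5 CPM filter. Tissue and immune genes lower (main 1) numbered 0 with upper-quartile factors and the 5 CPM filter, which also left 0 higher since Psmb8 was not tested there. That filter gave 2526 genes higher among all genes (main 3839), with fewer genes tested. Without A485 replicates 1 and 2, 8 proteasome genes were higher, with 1 core gene higher and 2 lower, 0 tissue and immune genes lower and 2 assembly factors higher. The share of all genes called in that fit is not given here. Leaving out 1 library gave 0 to 1 core genes higher, 0 to 2 lower and 0 to 1 tissue and immune genes lower. Over all genes, these fits called 3509 to 4165 higher and 2784 to 3520 lower. With TMM-scaled FPKM the log2 ratio of the summed level of A485 to control was -0.081 for the core, -0.43 for the regulatory particle, -0.46 for assembly factors and -0.20 for all 51 genes. The cause of these changes was not tested. Psmb8, Psmb11, Psma8 and Psme2b rest on few counts, and for the other subunits the spread between 4 pools a group limits what can be shown.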

Other observations

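Genes of the p97 segregase, which extracts ubiquitylated proteins and hands them to the proteasome, were described from a list of 9 genes. Vcp, the ATPase itself, was at 553, 641, 589 and 590 CPM in control and 587, 548, 581 and 668 CPM in A485, and its groups overlapped (log2 fold change 0.01 ± 0.12, edgeR adjusted p = 0.964; under total counts 0.29, adjusted p = 0.0382). Of the 9 genes, 3 were higher (33.3%, near the 29.7% of all genes tested) and 1 lower (11.1%, against 25.0%). Under total counts 4 were higher and 1 lower, beside 38.1% and 17.8% of all genes. The cofactor Ubxn1 fell by 1.42 in log2 (SE 0.21), from 1140, 1289, 1178 and 1237 CPM to 653, 465, 303 and 389 CPM. Ubxn4, a cofactor at the endoplasmic reticulum, was higher by 1.33 ± 0.18, and Ubxn7 by 0.63 ± 0.20. The edgeR call of Ubxn7 was lost without control replicate 3 (0.47, adjusted p = 0.0825) or control replicate 4 (0.55, adjusted p = 0.0679).

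Psmc3ip, matched by prefix only, fell from 49.98 ± 6.40 CPM in control to 20.0 ± 5.62 CPM in A485 (SD, n = 4; log2 fold change -1.32 ± 0.21, edgeR adjusted p = 0.000567).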
